A study of Mus musculus with 24 samples.

Results

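Argonaute 2 (AGO2), the protein in which microRNAs act on messenger RNAs, was mapped by HITS-CLIP (crosslinking, immunoprecipitation and sequencing of the bound RNA) in CD4+ T cells, and the authors' deposited table lists the bound stretches of RNA, called peaks, by their distance from the start of the 3' untranslated region (3' UTR). The distal peaks described here are the rows of that table that start beyond nucleotide 3000, where nucleotide 1 is the first after the coding sequence. There were 1635 such peaks in 505 genes, or 11.2% of the 14634 peaks, which lay in 4165 genes. They were compared with the 12999 other peaks and, to hold the gene constant, with the 2325 other peaks that 400 of these 505 genes also carried. The cells were taken from spleen and lymph nodes of C57BL/6 mice and were activated in culture for 4 days with IL-2 (20 U/mL) and antibodies against CD3 and CD28 (1 µg/mL). The 12 wild-type libraries and the 12 libraries from mice lacking miR-155 (knockout) were labelled as biological replicates, and 6 of each genotype carried each 3' linker. The table pools the libraries of a genotype, so each peak has 1 value per genotype and no replicate error.

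MicroRNAs pair with messenger RNAs mainly through their seed, a short run of bases near their 5' end, and AGO2 held at such a site recruits proteins of the GW182 family that shorten the poly(A) tail and repress the message. Many genes make messages with short and long 3' UTRs by using different poly(A) sites, and activated T cells are known to shift toward the shorter forms, which lack the distal stretch. miR-155 is induced when lymphocytes are activated and is the microRNA that the knockout removes.

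The sequences below show what was searched for and where it was found in the distal peaks called lower in the knockout. The mature miR-155-5p sequence is from RefSeq (table on GRCm38.p6), with the seed (bases 2 to 8) in capitals. The other lines are 30-nt windows of the deposited peak sequences, written as DNA with the site in capitals. A site of 8 nt (8mer) matches the whole seed and ends in A, a 7mer-m8 site matches the whole seed, and a 7mer-A1 site matches bases 2 to 7 and ends in A.
miR-155-5p: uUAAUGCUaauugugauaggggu
Fosl2 (8mer): tagaaacagatAGCATTAAagtacttcctt
Ddi2 (8mer): attctgaacttAGCATTAActgactttgcc
Gpm6b (8mer): tttatgtaaagAGCATTAAattttgctatg
Nf1 (8mer): tcaaacgtaatAGCATTAAgaagatcgtgt
Pigm (8mer): atccatactatAGCATTAActgtgtaggac
Rcor1 (7mer-m8): tgaatgtccatAGCATTAtaatcgcttagc
Sfmbt1 (7mer-A1): tacaattttatGCATTAAagacaaagtatt
Nsd1 (7mer-A1): ataagcaaaatGCATTAAactcttttgtgg
These 8 windows share the match to bases 2 to 7 (GCATTA), and the 6 of 8mer or 7mer-m8 type also match base 8.

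The deposited log2 values were read as log2(1 + scaled reads), and all read values here were computed from them. The total over all peaks was 371088 for wild type and 374126 for the knockout, and the depth of single libraries is unknown. Peaks lay in 8 of 10 marker genes of CD4 T cells, and none lay in the markers searched for B cells, myeloid cells, or CD8 T and NK cells. A gene without a peak may still be expressed, so these counts do not measure purity. Within replicates 1 to 6 the linkers split by genotype, and within 7 to 12 they split the other way. Pooled values do not separate these sets, so linker and genotype effects within them cannot be told apart here.

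How far a peak lies from the coding sequence depends on the transcript model. By exact sequence match, 1579 of the 1635 distal peaks (96.6%) were placed on GENCODE M21 transcripts of the named gene, on GRCm38 rather than the authors' mm9. Of these, 1564 lay in an annotated 3' UTR, and for 1430 (90.6%) the start lay within 1 nt of the authors' start. For 1314 distal peaks, every protein-coding model whose 3' UTR holds them put them beyond 3000 nt. A further 234 peaks in 83 genes lay within 3000 nt of the stop codon of another protein-coding model of the gene. The 4 distal peaks of Cdkn1b, which encodes the cell cycle inhibitor p27, started at 3052 to 3391 in the authors' model and 894 to 1233 nt after the nearer stop codon. The 8 peaks of Rreb1, a zinc finger transcription factor, started at 6422 to 8940 in the authors' model and at 310 to 2828 in the other. Another 27 distal peaks in 13 genes overlapped coding sequence of a protein-coding model, led by Smc4 and Srrm2 with 5 each. The peaks nearest the limit were those of Ccnt1, at the first nucleotide past it, and AW549877 at 3002 inside it, and Eif2c2 at 2997 and Rasa2 at 2996 outside it.

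AGO2 peaks became fewer across the distal stretch, and the median distal peak had reads near those of the median other peak. The authors' positions put 820 peaks beyond 3000 and up to 4000 nt, 370 from there to 5000, 294 from there to 7000 and 151 beyond. Summed over genotypes, the median distal peak had 17.4 scaled reads (quartiles 7.75 and 41.4), against 17.01 for all other peaks and 17.9 for other peaks of the same genes. How many 3' UTRs reach that far was not counted. Median reads in the 4 distal position ranges lay between 16.7 and 18.8. Peaks of 200 or more reads made up 3.18% of distal peaks (52), 4.01% of all other peaks (521) and 4.82% of other peaks of the same genes (112). Distal peaks together held 38591 wild-type and 39495 knockout reads, which was 10.5% of all reads and close to their 11.2% share of peaks. All of these are descriptions over peaks, which share genes and libraries, so no test was made of them.

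**Figure D1:**
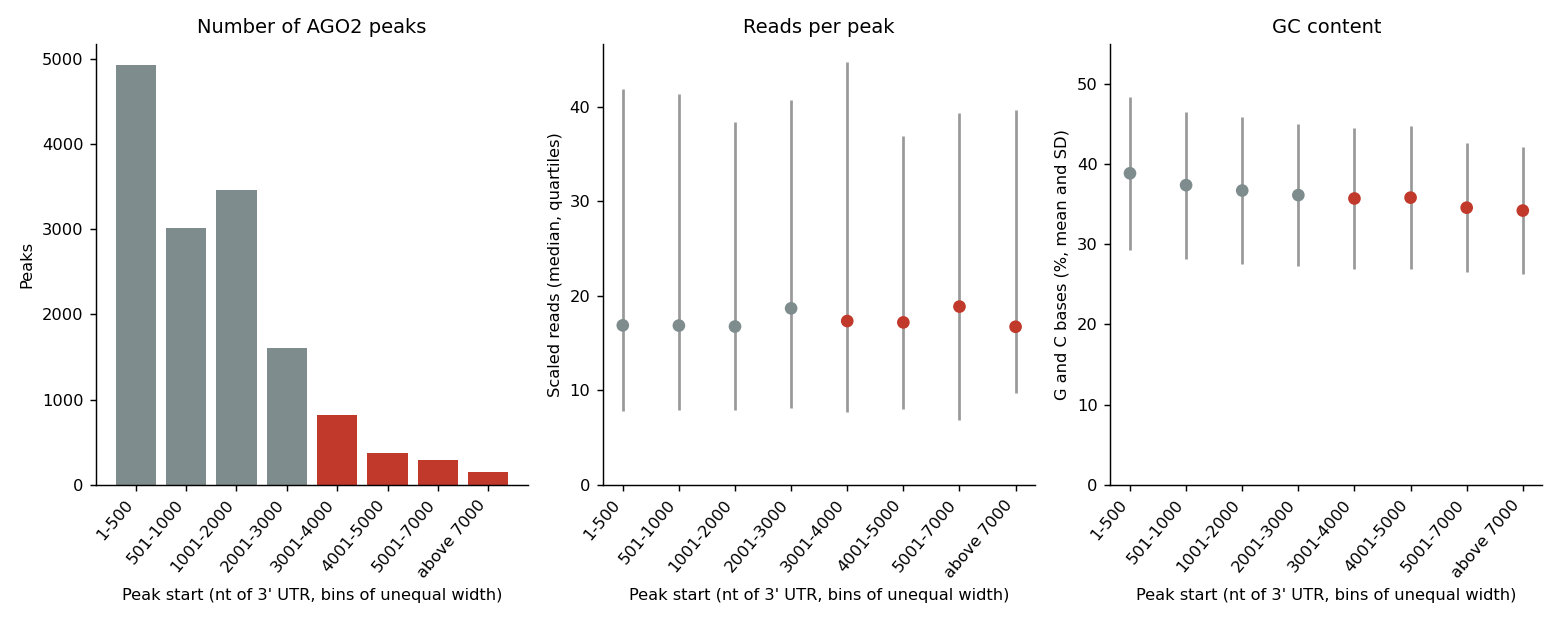
Peaks by start position in the 3' UTR (bins of unequal width), with distal bins in red: number of peaks, scaled reads per peak (median with quartiles) and G and C bases (mean with SD over peaks). The number falls across the 4 distal bins, median distal reads stay between 16.7 and 18.8, and mean GC content goes from 38.9% in the bin nearest the coding sequence to 34.2% beyond 7000 nt.

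The number of distal peaks differed widely between genes. Only a 3' UTR longer than 3000 nt can hold one. The 1635 distal peaks lay in 505 genes and the 12999 other peaks in 4060, and the spread over genes was not counted for other peaks. Of the 505 genes, 189 had a single distal peak, while 107 genes with 5 or more held 887 of the 1635 peaks. Zfp871, a zinc finger gene, had the most with 31, followed by Tnrc6b with 22, the kinase gene Taok1 with 20, Trp53inp1 with 18 and Aff4 with 17, a number Nfat5 also reached. In 105 genes every peak of the table was distal. In the 400 genes with both kinds, the distal peaks held a median 35.4% of the gene's reads. The gene's most-read peak was distal in 150 of them (37.5%), while 38.1% of the peaks of these genes were distal. The median distal peak had fewer reads than the median other peak in 208 genes and more in 192.

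The farthest peaks lay in Zbtb20, a zinc finger repressor with a very long 3' UTR. Its peak 6 started at 23775 nt and had 11.3 scaled reads in wild-type cells and 3.32 in knockout cells, 51 nt from the annotated end of the transcript (chr16:43642520-43642551, + strand). Peak 5 at 21765 nt had 20.4 and 2.57, and peak 4 at 19271 nt had 11.5 and 2.54. All 3 were higher in wild type, and the adjusted p of each was above 0.05. Peak 5 carried a miR-155 7mer-A1 site and, a few bases on, a site for the miR-17 family.
Zbtb20 peak 5, miR-155 site: atagttactctGCATTAAaaatgcacttta
Zbtb20 peak 5, miR-17 site: gcattaaaaatGCACTTTAaaaataaataa

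Between genotypes, distal peaks as a group did not stand apart. By the authors' deposited table the median log2 ratio of wild type over knockout was 0.20 in distal peaks, 0.20 in all other peaks and 0.20 in other peaks of the same genes. In 910 distal peaks (55.7%) the ratio was above 0, against 56.5% of all other peaks. The knockout was listed at 0 in 281 distal peaks (17.2%) and the wild type in 131 (8.01%), with 16.5% and 7.85% among all other peaks. Over the 1228 distal peaks with reads in both genotypes the median was 0.04, so most of the 0.20 came with peaks listed at 0 in 1 genotype. In the 400 genes with both kinds of peak, the median ratio of the distal peaks was above that of the gene's other peaks in 194 and below it in 206.

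After Benjamini-Hochberg adjustment of the p-values of the authors' deposited table over all 14634 peaks, with a threshold of 0.05, 10 distal peaks, each of a different gene, had lower knockout values. That was 0.612% of distal peaks, and the share over all peaks was 0.574% (84 peaks). A single distal peak was higher in the knockout, where the share over all peaks was 0.0273% (4 peaks). Other peaks of the same genes gave 13 lower and 1 higher. Before adjustment, p was below 0.05 for 73 distal peaks by the authors' deposited table, 51 higher in wild type and 22 higher in the knockout. This was 4.46% of distal peaks, against 4.203% of all peaks (398 and 217). The shares of called peaks were thus near the background. Of the 10, 8 held a miR-155 site of 7 or 8 nt, and 9 were listed at 0 in knockout cells. Wild-type reads ranged from 18.8 to 166 with a median of 42.7. Among the 74 other lowered peaks 51 held such a site and 34 were listed at 0 in knockout cells, with a wild-type median of 69.3.

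The 3 with the most wild-type reads lay in Fosl2, Rcor1 and Sfmbt1. Peak 7 of Fosl2, an AP-1 family transcription factor, had 166 scaled reads in wild-type cells and was listed at 0 in knockout cells (start 3733, chr5:32156922-32156952, + strand, adjusted p = 1.35e-19 from the authors' deposited table). Peak 18 of Rcor1, the CoREST scaffold that joins histone demethylase and deacetylase, had 106 and was listed at 0 (start 3794, chr12:111115710-111115749, + strand, adjusted p = 1.87e-36 from the same table). It also held a 7mer-m8 site for miR-181, just upstream of the miR-155 site. Peak 1 of Sfmbt1, a Polycomb-related repressor, had 61.9 and was listed at 0 (start 4737, chr14:30822585-30822620, + strand), and it was the only peak of that gene in the table. Peak 9 of Nsd1, a histone H3 lysine methyltransferase, had 25.04 and was listed at 0 (start 4086, chr13:55317814-55317846, + strand). These 4 peaks lay in annotated 3' UTRs, and each was listed at 0 in knockout cells.

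The other lowered peaks with a site lay in genes of diverse function. Peak 2 of Ddi2, an aspartic protease, had 44.5 scaled reads in wild-type cells and was listed at 0 in knockout cells (start 3179, chr4:141682462-141682497, - strand). Peak 2 of Pigm, a mannosyltransferase that builds membrane anchors, had 20.7 and was listed at 0 (start 5487, chr1:172383457-172383496, + strand). Peak 5 of Gpm6b, a membrane glycoprotein, had 41.0 in wild-type cells and 3.81 in knockout cells, and it was the only 1 of the 10 with reads in both (start 3294, chrX:166388765-166388806, + strand). Its log2 ratio was 3.12 in the authors' deposited table, and another model of the gene puts it 1664 nt after the stop codon. Peak 2 of Nf1, which encodes the Ras inhibitor neurofibromin, had 32.3 and was listed at 0 (chr11:79578348-79578394, + strand). The authors' model starts it at 4255 of the 3' UTR, whereas GENCODE places the whole peak in coding sequence. There its start lies 48 nt before the last base of the stop codon. The region that holds this 8mer thus depends on the model.

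The remaining calls had no miR-155 site of 7 or 8 nt. Peak 7 of Gas2l3, a protein that links actin and microtubules, had 46.4 scaled reads in wild-type cells and was listed at 0 in knockout cells (start 3899, adjusted p = 0.0105 from the authors' deposited table). Peak 5 of Gng12, a G protein gamma subunit, had 18.8 and was listed at 0 (start 3471, adjusted p = 0.0169 from the same table). They had the largest adjusted p of the 10. The peak called higher in the knockout was peak 8 of Kpna4, a nuclear import receptor, with 1.98 in wild-type cells and 42.1 in knockout cells (start 5530, chr3:69068515-69068558, - strand). Its log2 ratio was -3.86 in the authors' deposited table. The 8 other peaks of Kpna4 all had ratios above 0, from 0.25 to 2.71 in that table, but none of them was called lower. Together they had only 79.2 scaled reads in wild-type cells and 39.8 in knockout cells. Peaks 3, 6 and 9 were listed at 0 in knockout cells. Peak 8 thus differed in direction from peaks of few reads.

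**Figure D2:**
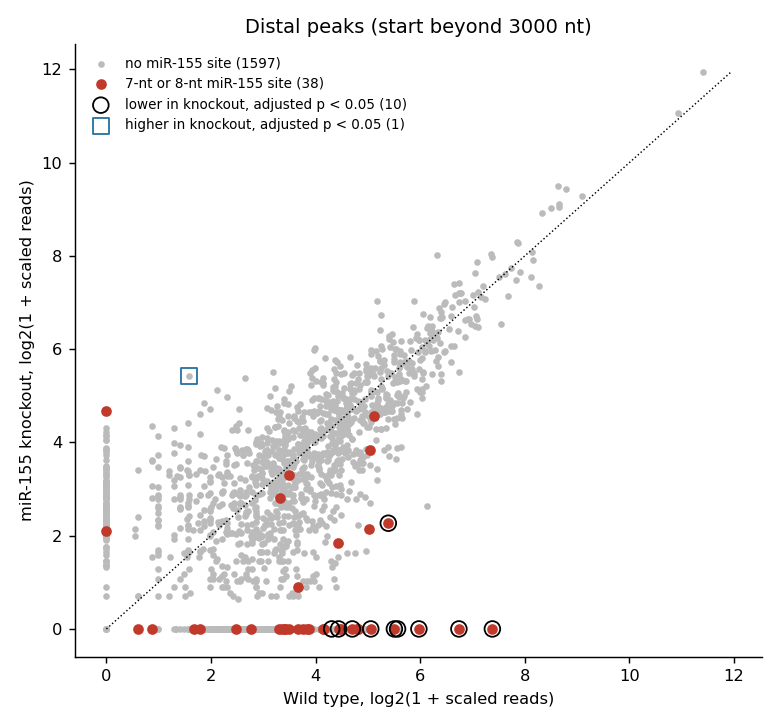
Each point is a distal peak, with log2(1 + scaled reads) in wild type on the horizontal and in the knockout on the vertical axis, and red points hold a miR-155 site of 7 or 8 nt. Most points follow the dotted line of equal reads, 36 of the 38 red points lie below it, and the 10 circled points are lower in the knockout while the square marks Kpna4.

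Sites of 7 or 8 nt for miR-155 were present in 38 distal peaks of 36 genes. This was 2.32% of distal peaks (exact 95% binomial interval 1.65 to 3.18, counting error only), against 1.75% of all other peaks (227) and 1.89% of other peaks of the same genes (44). The distal interval holds both other shares. The ratio was above 0 in 36 of the 38, and 28 were listed at 0 in knockout cells. Their summed scaled reads were 897 in wild-type cells and 89.5 in knockout cells. The median log2 ratio was 3.42 by the authors' deposited table, against 3.07 for site peaks elsewhere. For the 8 distal site peaks with reads in both genotypes it was 1.90, against 1.58 for the 99 elsewhere. The share called lower was 21.1% (8 of 38) in distal and 22.5% (51 of 227) in other site peaks.

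The counts by site type were small. Of 11 distal peaks with an 8mer, 5 were called lower, of 16 with a 7mer-m8 site 1, and of 11 with a 7mer-A1 site 2. In all other peaks the counts were 16 of 56, 16 of 78 and 19 of 93, and in other peaks of the same genes 0 of 7, 7 of 18 and 3 of 19, so the order of the types was not the same in each set. None of 12 distal peaks with only a 6mer (bases 2 to 7) was called at an adjusted p of 0.05, against 8 of 102 (7.84%) over all peaks. Their median log2 ratio was 1.54 in the authors' deposited table, 0.34 for the 6 with at least 20 reads and -0.00395 for the 7 with reads in both genotypes. Among the 17 distal site peaks with at least 20 scaled reads 8 were called lower, against 50 of 112 elsewhere. None of the 21 with fewer than 20 reads was called, although 20 of them had a ratio above 0 and 17 were listed at 0 in knockout cells. Their wild-type reads had a median of 9.67 and reached 17.01, below the 18.8 of the least-read distal peak called lower.

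Several site peaks, some of them with at least 20 scaled reads, did not pass the adjusted threshold. Peak 6 of Atxn1l, an ataxin-1 relative, held an 8mer and had 31.4 scaled reads in wild-type and 3.39 in knockout cells (adjusted p = 0.467 from the authors' deposited table). Peak 5 of Rreb1 had 27.2 and was listed at 0, and peak 1 of Rreb1, with an 8mer, had 17.01 and was listed at 0. Peak 23 of Zdhhc21, a palmitoyltransferase, had 27.2 and was listed at 0, while its peak 17, with an 8mer, had 9.01 and 6.01. Peak 8 of Gsk3b, a kinase of the PI3K pathway, had 32.0 and 13.3, and peak 18 of Celf2, an RNA-binding splicing regulator, had 33.9 and 22.8. These peaks were higher in wild type, by amounts that differed widely. The site peaks that went the other way were peak 4 of Zfp568, listed at 0 in wild type with 24.6 in knockout cells, and peak 6 of Cdk19, listed at 0 with 3.30. The Zfp568 peak also holds let-7 and miR-23 sites, of which the printed window shows that of let-7. Atxn1l, Rreb1, Gsk3b and Zfp568 are printed to show that their letters match bases 2 to 7 too (Gsk3b, Celf2, Rreb1, Zdhhc21, Zfp568 and Cdk19 were chosen after their values were seen).
Atxn1l peak 6 (8mer): atctttaacaaAGCATTAAtaattctaagg
Rreb1 peak 1 (8mer): cttttcatttaAGCATTAAcattacctttt
Rreb1 peak 5 (7mer-A1): tttcagcccatGCATTAAacagaaaacaat
Gsk3b peak 8 (7mer-A1): tactgtaatttGCATTAAataaaaagtagg
Zfp568 peak 4 (7mer-m8): ttcgggacacaAGCATTAcctcaggttgct

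Elsewhere in the same 3' UTRs most AGO2 peaks had reads in both genotypes. Fosl2 had 14 peaks, 12 of them distal. The 11 distal peaks that were not called had 330 scaled reads in wild-type cells and 385 in knockout cells together, with log2 ratios from -1.01 to 3.33 in the authors' deposited table. Its most-read peak, peak 12 at 4475 nt with a miR-15/16 8mer and a miR-19 site, had 165 in wild-type cells and 252 in knockout cells. Rcor1 had 20 peaks, 9 of them distal, and 2 lowered peaks on either side of the 3000-nt limit. Its peak 7 at 2697 nt, which also held a miR-155 site, had 84.5 in wild-type cells and was listed at 0. The 8 other distal peaks of Rcor1 had 160 in wild-type cells and 102 in knockout cells, with ratios from -0.34 to 3.26. Beside the lowered Fosl2 peak, peak 6 had 3.62 and was listed at 0, and peak 8 had 18.5 and 4.32. Beside that of Rcor1, peak 17 had 46.0 and 22.0, and peak 19 had 11.7 and 0.634.

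**Figure D3:**
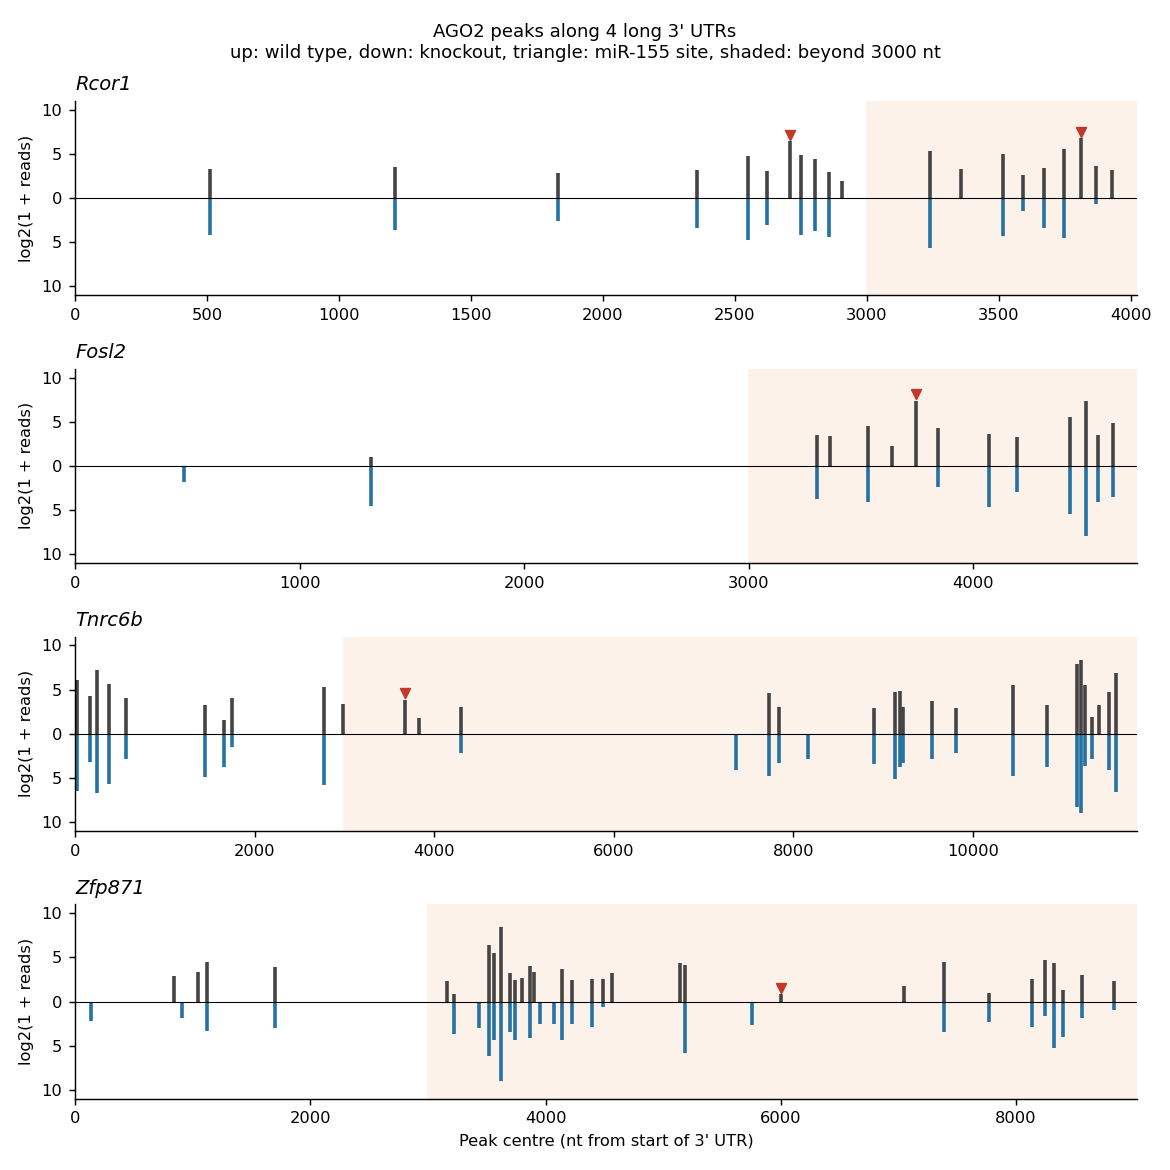
Scaled reads of each peak as log2(1 + reads), wild type upward and knockout downward, against the peak's centre in the 3' UTR of 4 genes, with miR-155 site peaks marked by triangles and the distal stretch shaded. In Rcor1 and Fosl2 the peaks with 106 and 166 wild-type reads have no knockout bar, while in Tnrc6b and Zfp871 no peak was called and the tallest distal peaks have bars in both directions.

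In Tnrc6b and Zfp871 many distal peaks were present and none was called. Tnrc6b, a GW182 protein of the silencing complex itself, had 22 distal peaks with 940 scaled reads in wild-type cells and 1106 in knockout cells. Its miR-155 site peak 11 at 3661 nt had 13.6 and was listed at 0. The 31 distal peaks of Zfp871 had 695 and 849, and its site peak 28 had 0.822 and was listed at 0. In both genes the miR-155 site peak carried a small part of the distal reads.

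Seed sites of the 15 other microRNA families searched had similar shares in distal and all other peaks. A site of 7 or 8 nt for at least 1 of the 15 was present in 552 distal peaks (33.8%), in 33.7% of all other peaks and in 31.3% of other peaks of the same genes. In distal peaks the most frequent were those of miR-15/16 (3.91%), miR-17 (3.55%), miR-27 (3.55%) and miR-25/92 (3.43%), and the least frequent was miR-146 (0.673%). Among all other peaks miR-15/16 sites made up 4.66% and miR-25/92 sites 2.69%. Of all 16 families, miR-155 had the largest ratio of the distal share to that in all other peaks (1.33), though its distal interval holds both other shares. It did not lead against other peaks of the same genes. There miR-25/92 sites were in 3.43% of distal and 2.06% of same-gene peaks, and miR-155 sites in 2.32% and 1.89%. The share with any of the 15 went up with reads, from 23.9% of distal peaks under 10 reads to 34.5%, 45.8% and 57.7% at 10 to 50, 50 to 200 and 200 or more. In all other peaks it was 26.0%, 33.3%, 45.7% and 53.0%.

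**Figure D4:**
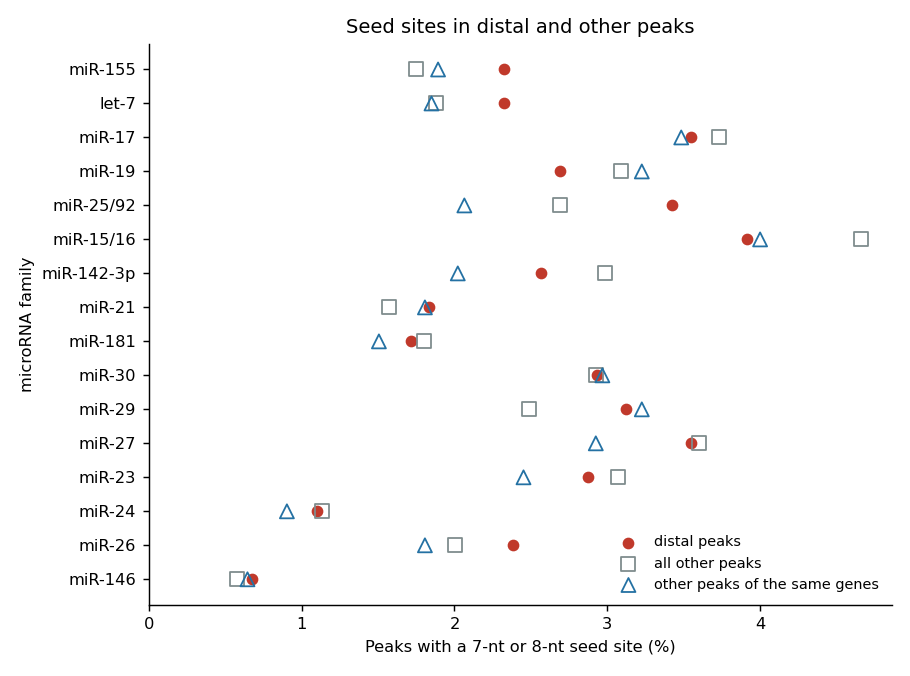
Percent of peaks with a 7-nt or 8-nt seed site of each microRNA family, for distal peaks (filled circles), all other peaks (squares) and other peaks of the same genes (triangles). The families lie between 0.5% and 5% in all 3 sets, with miR-15/16 lower in distal (3.91%) than in all other peaks (4.66%) and miR-155 higher (2.32% against 1.75%).

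The most-read distal peaks were bound in both genotypes, and 5 of the top 10 held a site of the families searched. The 10 with the most reads, 1 per gene, held 23.5% of all distal reads, and 9 of them were higher in the knockout, with log2 ratios from -0.86 to 0.04 in the authors' deposited table. None had an adjusted p below 0.05, and their smallest unadjusted p in that table was 0.0366, for Tet3. Likewise 33 of the 52 distal peaks with 200 or more reads (63.5%) were higher in the knockout, against 62.0% of the other peaks of that depth. The windows below show the sites in 6 of the 10, beside the microRNAs they match, with the seed in capitals.
miR-24-3p: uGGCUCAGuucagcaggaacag
Cdkn1b peak 19 (8mer): aaggttgcataCTGAGCCAagtataatttt
miR-21a-5p: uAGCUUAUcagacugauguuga
Aff4 peak 26 (7mer-m8): catttcacataATAAGCTgttaatggtgag
Tnrc6b peak 27 (7mer-m8): ctaatgtacaaATAAGCTgaaaagttgcat
miR-29a-3p: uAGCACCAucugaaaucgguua
Tet3 peak 17 (8mer): agtctaataaaTGGTGCTAtggtgtttcaa
miR-27a-3p: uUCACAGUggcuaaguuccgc
Gpr174 peak 26 (8mer): acttccaagatACTGTGAAatgttgttact
miR-142a-3p: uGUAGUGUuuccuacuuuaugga
Bmpr1a peak 7 (match to bases 3 to 9): tcttgatatgtAACACTAagtgtattttgt

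The most-read distal peak was peak 8 of C130039O16Rik, with 2722 scaled reads in wild-type cells and 3948 in knockout cells (start 3119, chr12:84149247-84149283, - strand), and it held no site of the 16 families. Peak 19 of Cdkn1b had 1960 and 2148 (start 3336, chr6:134925411-134925446, + strand). This peak set the share of reads on miR-24 sites, which was 6.07% of distal reads with it and 0.857% without it, against 1.03% in all other peaks. Peak 26 of Aff4, a scaffold of the super elongation complex, had 549 and 620 (start 5401), and peak 27 of Tnrc6b had 322 and 483 (start 11190). With the Aff4 peak miR-21 sites held 4.65% of distal reads and without it 3.20%, against 2.25% elsewhere. Peak 17 of Tet3, an enzyme that oxidises methylated cytosine, had 443 and 687 (start 3686), and it also carried a miR-23 site. Peak 26 of Gpr174, a G protein-coupled receptor of lymphocytes, had 401 and 526 (start 3071). Without their own most-read peak, all other peaks gave 0.889% for miR-24 and 2.02% for miR-21. The high miR-24 share thus rested on the Cdkn1b peak. Without the Aff4 peak the distal miR-21 share stayed above that of all other peaks. It was below the 3.85% of reads in other peaks of the same genes, and it still included the Tnrc6b peak.

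The 4 peaks of the 10 not yet described had no site of the families searched. Peak 29 of Bach2, a repressor of effector differentiation in T cells, had 398 scaled reads in wild-type cells and 723 in knockout cells (start 5685). Peak 7 of Bmpr1a, a BMP receptor, had 403 and 550 (start 3334), peak 12 of Zfp871 had 360 and 518 (start 3604) and peak 8 of Med13, a Mediator subunit, had 279 and 271 (start 3810). Both the Bmpr1a and the Med13 peak held AACACTA, the match to bases 3 to 9 of miR-142-3p, a search that was added after these peaks were seen. It matched 50 distal peaks (3.06%) and 2.84% of all other peaks. With 200 or more reads it matched 13.5% of distal peaks (7 of 52), 8.45% of all other peaks (44 of 521) and 9.82% of other peaks of the same genes. The 7 include the Bmpr1a and Med13 peaks that prompted the search, so nothing is read from this contrast.

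Distal peaks were lower in mean GC content than the rest, but the decline began before the 3000-nt limit. The mean GC content was 35.4% ± 8.65 (SD over 1635 peaks), against 37.6% ± 9.34 in all other peaks and 37.8% ± 8.71 in other peaks of the same genes. T made up most of the difference, at 35.6% of distal bases against 33.5%, while A was 29.0% against 28.8%. In the 400 genes with both kinds of peak, the distal peaks had the lower mean GC content in 265 (66.2%), with a median difference of -2.71 percentage points. The spread among peaks was larger than any of these differences. By start position, mean GC content was 38.9% in the bin nearest the coding sequence and 36.1% beyond 2000 and up to 3000 nt. It was 35.7% beyond 3000 and up to 4000 nt, so the means on either side of the limit lay close together. Of the short motifs counted on the RNA strand, ATTTA, the core of AU-rich elements, was in 12.4% of distal and 11.5% of all other peaks. TGTANATA, the Pumilio recognition motif, was in 5.08% and 3.53%, and in 2.88% of other peaks of the same genes. AATAAA, the poly(A) signal that directs cleavage of the message, was in 11.0%, 9.39% and 3.14%, respectively. Over all peaks the shares were 11.6% for ATTTA, 3.70% for TGTANATA and 9.57% for AATAAA.

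The AATAAA share went with distance to the end of the transcript. The median distal peak ended 471 nt before the annotated transcript end (quartiles 153.5 and 1458.5), against 1067 nt for all other peaks. Distances in other peaks of the same genes are long by the choice of genes (median 3122 nt). Within 100 nt of the end lay 284 placed distal peaks (17.99%) and 10.2% of all other placed peaks. AATAAA was in 35.6% of these 284 and in 33.4% of the other peaks that close to an end, and farther away in 4.56% and 5.14%. TGTANATA was in 10.9% of distal and 5.38% of other peaks within 100 nt, and in 3.63% and 3.31% farther away. Mean GC content was 31.4% in the 284 and 36.5% in the distal peaks farther away, against 34.9% and 38.2% in other peaks. The distal peaks were thus lower in GC in each distance class, whereas the AATAAA shares lay near each other within a class.

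**Figure D5:**
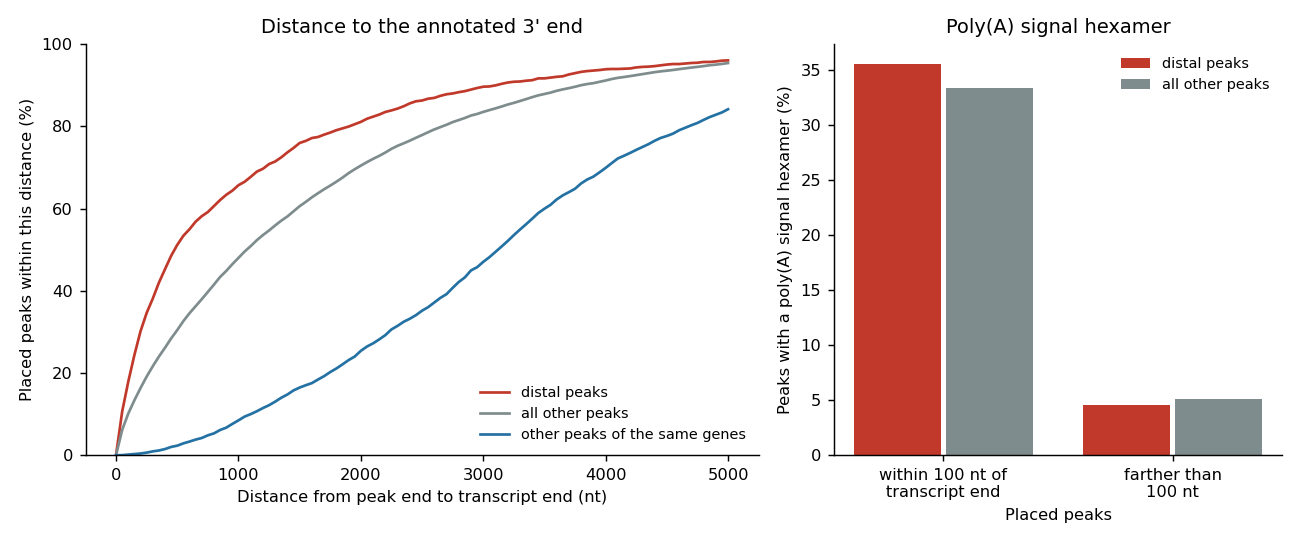
Left, percent of placed peaks whose end lies within a given distance of the annotated transcript end, for distal, all other and same-gene peaks. Right, percent of distal and all other placed peaks that hold AATAAA within 100 nt of that end (35.6% and 33.4%) and farther away (4.56% and 5.14%).

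Near the transcript end median reads lay close to those farther in, while the shares with a site were lower. Median reads were 17.1 in the 284 distal peaks near the end and 17.6 in the 1295 farther away. Peaks of 200 or more reads made up 4.93% (14 peaks) and 2.63% (34 peaks), against 4.68% and 3.95% in all other peaks. Of the 10 most-read distal peaks 5 lay within 100 nt of the end: those of C130039O16Rik (71 nt), Cdkn1b (67 nt), Bach2 (89 nt), Gpr174 (65 nt) and Med13 (99 nt). Any of the 15 families had a site in 27.5% of the near and 34.7% of the far distal peaks, and miR-155 in 0.704% (2 peaks) and 2.63% (34 peaks). In all other peaks the near and far shares were 29.6% and 34.3% for the 15 families, and 1.56% and 1.74% for miR-155. The 10 lowered distal peaks lay from 101 nt (Sfmbt1) to 4913 nt (Ddi2) from the end. None of the 284 near peaks was called lower, against 7 of 1282 other peaks that close and 0.574% of all peaks, so the count is near the background.

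Among gene groups, those of the microRNA pathway had the largest share of distal peaks. In that list 61 of 177 peaks (34.5%) in 8 of its 16 genes with peaks were distal, against 11.2% of all peaks. Most of the 61 lay in a few genes, with 22 in Tnrc6b and 12 each in Eif2c2 and Pum2. None of the 61 was called lower or higher. By summed distal reads Tnrc6b led the list. Next came Eif2c2, which encodes AGO2 itself, with 310 scaled reads in wild-type cells and 274 in knockout cells. The deadenylase subunit gene Cnot6l followed with 197 and 186. Of the known miR-155 targets 6 of 21 had distal peaks (52 of 255, 20.4%), and 2 of these were called lower, in Fosl2 and Rcor1, beside 10 of the list's other peaks and 0.574% of all peaks. The list was drawn up from known targets and these results were known, so the count is a description. Trp53inp1, a stress-response gene of that list, had 18 distal peaks with 290 and 227 and none called. Rictor, a subunit of mTOR complex 2, had 8 distal peaks with 244 and 311.

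The other lists had fewer. PI3K, AKT and mTOR genes had 25 of 113 peaks distal (22.1%), including 6 in Pdpk1, the kinase that activates AKT, with 93.4 scaled reads in wild-type cells and 158 in knockout cells. Chromatin regulators had 51 of 271 (18.8%), with the Rcor1 peak called lower. Of this list Mll1, a histone methyltransferase gene, had 13 distal peaks with 263 and 317, and Tet3 had 11 with 542 and 797. Ubiquitin ligases had 21 of 163 (12.9%), of which Xiap, an inhibitor of apoptosis, had 11 (135 and 128) and Cblb, a brake on T cell receptor signalling, 3 (108 and 157). Lymphocyte transcription factors had 30 of 255 (11.8%), of which Bach2 had 12 with 511 and 834, and Ets1 had 4 with 104 and 51.9. T cell receptor and costimulation genes had 14 of 150 (9.33%), of which Cd28, the costimulatory receptor, had 7 with 246 and 321. Cytokine receptors and JAK-STAT genes had 4 of 156 (2.56%), the lowest share of the 8 lists. Its most-read was the peak of Il2ra, the high-affinity IL-2 receptor chain, at 3366 nt with a miR-21 8mer and 136 and 232 reads. Outside the known targets and chromatin regulators, no distal peak of the 8 lists was called in either direction by the adjusted p of the authors' deposited table. With 0.574% of all peaks called lower and at most 61 distal peaks in a list, these counts are near the background and nothing is read from them.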

How the data were processed

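AGO2 HITS-CLIP libraries were made from 12 wild-type and 12 miR-155 knockout samples, and the table pools them by genotype. Bowtie 0.12.7 and mm9 are named in the submitters' processing notes. Sources used here do not give the peak caller, the scaling or the authors' test. Per the file headers, the deposited log2 columns hold reads per genotype and the log2 ratio of wild type to knockout, and the deposited p-value is for differential binding. Scaled reads were computed as 2 to the power of the log2 value, less 1. Adjustment of the p-values followed Benjamini and Hochberg over 14634 peaks (threshold 0.05). What spread between libraries these p-values reflect is unknown.

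Peak sequences, with the 6 nt deposited on each side, were searched on the RNA strand for 8mer, 7mer-m8 and 7mer-A1 sites of 16 RefSeq microRNA families, and each peak was counted once per family in its longest class. Members and lists were chosen with earlier results of these data known. Peaks named were all those called, the 10 most read, the 5 genes with the most, the 3 farthest, 8mer peaks of at least 20 reads, the nearest to the limit, and up to 3 members of each of 8 lists; others were chosen after their values were seen. Peaks without a match to GENCODE M21 have no position. Site search and adjustment were tested on simulated data. Python 3.11.15, NumPy 2.4.6, pandas 2.3.3, SciPy 1.17.1 and Matplotlib 3.10.9 were used.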

Additional observations from a re-analysis of the deposited data

How the results depend on the processing

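The 10 lowered and the 1 raised distal peak rest on the authors' p-values and on 1 pooled value per genotype. No paired analysis was possible because the table holds no value per library, so leaving out a library was not possible either. Under the alternatives 40 values stayed within 1.5 times the main count or within the interval of the main value, and 21 did not. With starts above 2000 nt there were 3235 peaks, 20 lowered and 2 raised, and with starts above 4000 nt 815 peaks and 4 lowered. Over all peaks the counts stayed at 84 lowered and 4 raised. Bonferroni adjustment left 6 lowered (49 over all peaks), and an adjusted p threshold of 0.1 gave 2 raised (13 over all peaks). Restricting the table to peaks with reads in both genotypes left 1 lowered of 1228 distal peaks, against 39 of 11098 over all peaks. Here the distal share lay below that over all peaks, since 9 of the 10 had no knockout reads listed. The median log2 ratio was then 0.0393 for distal peaks (0.0400 without the pseudocount) and 1.90 for distal miR-155 site peaks. Requiring 10 scaled reads gave a median of 29.9 reads, a log2 ratio of 0.0706 and a share of 38.5% with a site of the 15 families. Taking the most-read peak of each gene gave 34.3 reads, a log2 ratio of 0.0912, a GC content of 34.0% (median) and a site share of 46.5%. The most-read of all other peaks had 29.3 reads, 0.0772 and 46.3%, and those of the same genes had 56.5 reads, -0.0567 and 54.2%. The sets differ in peaks per gene (1635 in 505 genes, 12999 in 4060 and 2325 in 400), so nothing is read from this contrast. Without flanks the median GC content was 35.7%. The share with a site was 24.6% for 8mer and 7mer-m8 sites only and 44.3% with 6mer sites. Counting from the nearest GENCODE stop codon, an alternative added after seeing the data, gave 1325 peaks and 8 lowered (84 over all peaks). The depth of the libraries is unknown, so a peak listed at 0 gives no bound on binding.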
